A study of Saccharomyces cerevisiae with 12 samples.

Results

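Budding yeast (Saccharomyces cerevisiae) labelled nup84gcr1 null, named as lacking both NUP84 and GCR1, was set against the nup84 null, named as lacking NUP84 alone. Both strains carry the NUP84 deletion, so the contrast asks what loss of GCR1 adds where NUP84 is already missing. The arrays were chosen by their titles, 4 for the strain labelled nup84gcr1 null and 4 for the nup84 null, and make up 8 of the 12 arrays of the series. The other 4 arrays carry a strain labelled gcr1 null, which shares the estimate of the spread and enters the difference of differences at the end. All strains, and the wild type hybridised beside each of them, were grown with 2% glucose. On each 2-colour Agilent array the deletion strain was labelled with Cy5 (arrays 1 and 2) or with Cy3 (arrays 3 and 4), and wild-type RNA with the other dye. The design text of the series states biological replicates with technical dye swaps, so the 4 arrays of a strain stand for 2 biological samples. The sources used here do not say whether those were separate cultures, which arrays are swaps of each other, or what strain background, mating type and marker genes were used. A ratio below is the log2 ratio of a deletion strain over wild type, centred on the median of the array, and a difference is the mean ratio of the strain labelled nup84gcr1 null minus that of the nup84 null.

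Gcr1 is a transcriptional activator that acts with Gcr2 and Rap1 and is known for driving the genes of glycolytic enzymes during growth on glucose. It also acts at ribosomal protein genes. Nup84 is a scaffold subunit of the Y-shaped complex of the nuclear pore, through which mRNA leaves the nucleus. Yeast with ample glucose ferments it to ethanol, and the genes for using ethanol, acetate, lactate and fatty acids are largely repressed until glucose runs low.

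The 2 deleted genes were read first. NUP84 (YDL116W) had log2 ratios of -3.58, -3.08, -2.49 and -1.80 on arrays 1 to 4 labelled nup84gcr1 null, against -4.27, -3.26, -2.75 and -2.50 on those of the nup84 null. It was low on all 8 arrays, and the difference of 0.45 had a 95% interval of -0.33 to 1.24. GCR1 (YPL075W) read 0.85, 0.96, 0.53 and 0.79 in the strain labelled nup84gcr1 null, against 0.45, 0.47, 0.34 and 0.60 in the nup84 null. All 8 values lay above wild type, the groups overlapped, and the difference was 0.31 ± 0.29 (SE, n = 2 samples per strain; 95% interval -0.35 to 0.98; adjusted p = 0.638). GCR1 therefore went against the label nup84gcr1 null, and every direction below rests on that label. In the strain labelled gcr1 null it averaged 1.08 ± 0.21 (SE; adjusted p = 0.00453 against wild type), which goes against that label too. The sources used here do not give the position of its 2 probes, and one that lies outside the deletion tells nothing of it.

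Among the genes lower in the strain labelled nup84gcr1 null than in the nup84 null were GPM1, ENO2 and CDC19 of lower glycolysis, and among those higher were CIT3, PDH1, ADH2, CIT2 and PHO5. Limma called 42 of 5636 genes at an adjusted p under 0.05 (0.745%), 36 higher (0.639%) and 6 lower (0.106%) in the strain labelled nup84gcr1 null. The 36 genes that rose differed by 1.65 to 4.17, with a median of 2.45, which is a median 5.48-fold difference. The 6 genes that fell differed by -4.23 to -2.39, with a median of -3.15 or 9.04-fold. The arrays of the strains did not overlap for 35 of the 36 and for all 6. For all 42 the difference had the same direction in arrays 1 and 3 and in arrays 2 and 4. The means of these pairs entered the test, which favours such agreement in advance. Without overlap, 7.88% of all genes were higher and 7.15% lower in the strain labelled nup84gcr1 null. By sign, 2918 of all 5636 differences were below 0 and 2718 above. At an unadjusted p under 0.05 there were 892 genes, 505 higher and 387 lower. Over all genes the SD of the differences was 0.64 and the median SE 0.33. The median 95% interval was 1.51 wide on the log2 scale, and the smallest difference called was 3.15-fold. The count depended on which arrays were in the fit. It fell sharply without arrays 1 and 3 or 2 and 4 of the nup84 null, and rose without those labelled nup84gcr1 null. Such a fit leaves 1 sample in that strain, and the spread is pooled over strains, so the other strains alone set it. After scaling the arrays to a common spread limma called 0 (790 at an unadjusted p under 0.05). The SD over genes was 0.90 to 1.27 on arrays labelled nup84gcr1 null, against 0.66 to 0.87 on those of the nup84 null. With only these 2 strains in the fit, 20 of the 42 no longer passed, and without centring 12 did not.

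**Figure D1:**
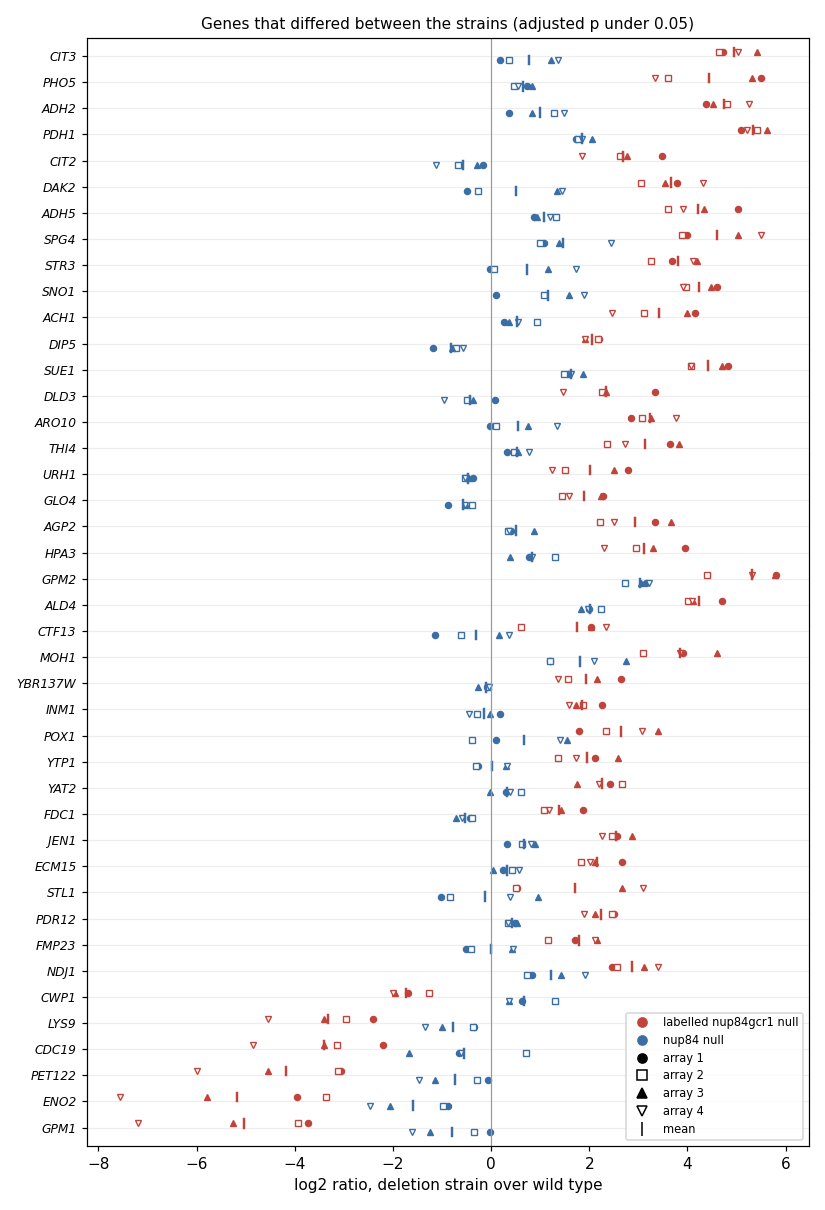
Log2 ratio over wild type (x axis) of the 42 genes that passed the test, on the 4 arrays labelled nup84gcr1 null (red) and the 4 nup84 null arrays (blue), with marker shapes for array 1 to 4 and a bar at each mean. The 36 genes higher in the strain labelled nup84gcr1 null are above and the 6 lower ones at the bottom, and STL1 is the one whose arrays overlap.

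Among the 6 genes that fell, GPM1 and ENO2 of lower glycolysis had the largest decreases. GPM1 (YKL152C), the major phosphoglycerate mutase gene, read -3.72, -3.93, -5.26 and -7.20 on arrays 1 to 4 labelled nup84gcr1 null, against -0.015, -0.35, -1.24 and -1.60 in the nup84 null. Every array labelled nup84gcr1 null lay below every nup84 null array, and GPM1 fell by 18.7-fold (difference -4.23 ± 0.39; adjusted p = 0.00442). ENO2, the enolase gene that is strongest on glucose, had -3.96, -3.37, -5.79 and -7.56 in the strain labelled nup84gcr1 null, against -0.88, -0.98, -2.05 and -2.47 in the nup84 null. The groups were separate here too, with array 4 lowest in both strains, and ENO2 fell (difference -3.58 ± 0.32; adjusted p = 0.00535). CDC19, the pyruvate kinase gene, had ratios of -2.21, -3.14, -3.41 and -4.85 in the strain labelled nup84gcr1 null, against -0.65, 0.70, -1.67 and -0.61 in the nup84 null. It fell as well (difference -2.85 ± 0.50; adjusted p = 0.0462), and the difference was -1.66 on arrays 1 and 3 and -4.04 on arrays 2 and 4. Without the arrays labelled gcr1 null in the fit or without centring, among other settings, CDC19 no longer passed.

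Among the glycolytic genes that passed, 1 went the other way. GPM2, a homologue of GPM1 that makes little mutase activity in normal cells, had 5.798, 4.39, 5.78 and 5.31 in the strain labelled nup84gcr1 null, against 3.16, 2.73, 3.05 and 3.23 in the nup84 null. Both strains were above wild type on every array and the groups did not overlap, and GPM2 rose further in the strain labelled nup84gcr1 null (difference 2.28 ± 0.39; adjusted p = 0.0422). GPM2 no longer passed without centring or without the arrays labelled gcr1 null, and its difference was 0.62 after scaling the arrays to a common spread. The third homologue, GPM3, read -0.95 in the strain labelled nup84gcr1 null and -0.98 in the nup84 null (difference 0.025; 95% interval -0.75 to 0.80).

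Along the whole pathway, 3 of 19 glycolytic enzyme genes fell (15.8%, against 0.106% of all genes) and 1 rose (5.26%, against 0.639%). Of the 19 genes, 12 had a difference below 0 and 7 above. Their median difference was -1.40, against -0.026 over all genes, with a median ratio of -1.94 in the strain labelled nup84gcr1 null and -0.73 in the nup84 null. After scaling the arrays to a common spread the median difference was -1.11, and limma called 0 of the 19. Another 3 genes were lower on every array labelled nup84gcr1 null without passing the test. These were ENO1, the second enolase gene, at -3.13 ± 0.57 (adjusted p = 0.0533), TPI1, the triose phosphate isomerase gene, at -2.59 ± 0.49 (adjusted p = 0.0568), and TDH3, the main glyceraldehyde-3-phosphate dehydrogenase gene, at -2.21 ± 0.51 (adjusted p = 0.0951). PGK1, the phosphoglycerate kinase gene, at -2.29 ± 0.68, TDH2 at -1.90 ± 0.60 and TDH1 at -1.53 ± 0.73 had overlapping arrays. FBA1, the aldolase gene in the middle of the pathway, differed by -1.40 ± 0.42 (adjusted p = 0.163).

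In the upper steps no gene passed. PGI1, the phosphoglucose isomerase gene, and PFK2, a phosphofructokinase subunit gene, differed by 0.10 (95% interval -0.75 to 0.95) and 0.18 (-0.64 to 0.99). PFK1, the other phosphofructokinase subunit gene, differed by -0.70 ± 0.28 and did not pass (adjusted p = 0.272). Of the hexose kinases, HXK1 stood high in both strains, at 4.91, 3.10, 4.56 and 2.78 on arrays labelled nup84gcr1 null and 4.43, 4.54, 4.44 and 3.86 on nup84 null arrays, with a difference of -0.48 (95% interval -1.66 to 0.70). After scaling the arrays to a common spread, the difference of HXK1 was -2.31 (limma adjusted p = 0.161). HXK2, the main hexokinase gene on glucose, differed by 0.35 (-0.96 to 1.66) and GLK1, the glucokinase gene, by 1.10 (-0.12 to 2.33), and both had overlapping arrays. PYK2, the minor pyruvate kinase gene, differed by 0.65 (-0.40 to 1.69). In the plot of glycolytic genes in pathway order, the 6 genes below the nup84 null on every array labelled nup84gcr1 null lie in the stretch from TPI1 to CDC19. Those 6 are 31.6% of the 19, against 7.15% of all genes. Higher without overlap was 1 of the 19 (5.26%, against 7.88% of all genes).

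**Figure D2:**
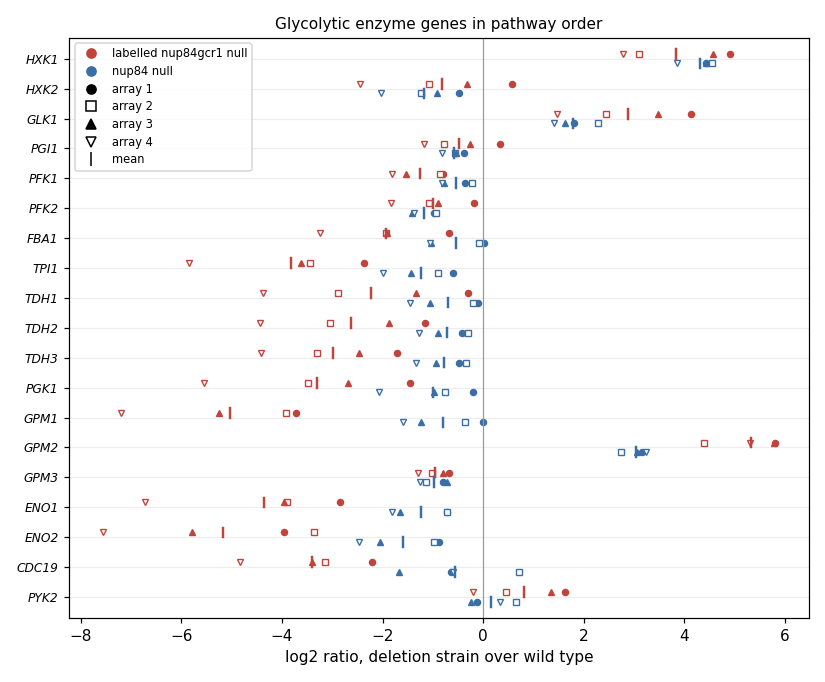
Log2 ratio over wild type (x axis) of 19 glycolytic enzyme genes in pathway order from top to bottom, on the 4 arrays labelled nup84gcr1 null (red) and the 4 nup84 null arrays (blue), with a bar at each mean. GPM1 and ENO2 average -5.03 and -5.17 in the strain labelled nup84gcr1 null, against -0.80 and -1.59 in the nup84 null, while GPM2 is above wild type in both.

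Of 9 pyruvate decarboxylase and alcohol dehydrogenase genes, 1 rose (11.1%, against 0.639% of all genes). Of the 9 differences, 4 were below 0 and 5 above, with a median of 0.16. ADH1, the fermentative alcohol dehydrogenase gene, read -2.10, -3.20, -3.65 and -5.17 on arrays labelled nup84gcr1 null, against -0.50, -0.81, -1.72 and -2.05 on nup84 null arrays. The groups did not overlap but the difference of -2.26 ± 0.43 missed the threshold (adjusted p = 0.0551). ADH2, the ethanol-oxidising alcohol dehydrogenase gene that glucose represses, had 4.38, 4.80, 4.52 and 5.26 in the strain labelled nup84gcr1 null, against 0.37, 1.28, 0.84 and 1.48 in the nup84 null. The 4 arrays labelled nup84gcr1 null were all far above the 4 others, and ADH2 rose by 13.4-fold (difference 3.75 ± 0.38; adjusted p = 0.00510). ADH5, another alcohol dehydrogenase gene, rose as well (difference 3.15 ± 0.36; adjusted p = 0.00876), with ratios of 3.61 to 5.04 on arrays labelled nup84gcr1 null and 0.86 to 1.32 on nup84 null arrays. ADH5 was the 1 of those 9 genes to pass, and ADH2 stands in the gluconeogenesis and glyoxylate list instead. Whether the probes tell such similar genes apart was not tested.

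The methylcitrate cycle, which breaks down propionyl-CoA in mitochondria, held the largest increase. CIT3 (YPR001W), which encodes a mitochondrial citrate and methylcitrate synthase, read 4.72, 4.65, 5.42 and 5.03 on arrays 1 to 4 labelled nup84gcr1 null, against 0.18, 0.37, 1.22 and 1.37 on those of the nup84 null. The groups were more than 3 log2 units apart at their closest, and CIT3 rose by 18.02-fold (difference 4.17 ± 0.33; adjusted p = 0.00258). PDH1, the methylcitrate dehydratase gene, had 5.08, 5.41, 5.62 and 5.21 in the strain labelled nup84gcr1 null, against 1.73, 1.76, 2.06 and 1.85 in the nup84 null. It was already above wild type in the nup84 null and rose further (difference 3.48 ± 0.28; adjusted p = 0.00258). ICL2, the methylisocitrate lyase gene, read 1.46 to 2.07 on arrays labelled nup84gcr1 null and 0.49 to 0.74 on nup84 null arrays, without overlap, and did not pass (1.11 ± 0.27; adjusted p = 0.108).

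Of 21 gluconeogenic and glyoxylate cycle genes, 6 rose and 0 fell (only PCK1 read below 0, at -0.25), and 12 were higher without overlap. That is 28.6% called higher, against 0.639% of all genes, and 57.1% higher without overlap, against 7.88%. The list was written with results of these data known. The median difference was 1.41, and 0.99 after scaling the arrays to a common spread. After scaling, 6 of the 21 differences were below 0 and limma called 0 of them. CIT2, the peroxisomal citrate synthase gene of the glyoxylate cycle, read 3.48, 2.62, 2.77 and 1.86 in the strain labelled nup84gcr1 null, against -0.18, -0.68, -0.29 and -1.12 in the nup84 null. It lay above wild type on every array labelled nup84gcr1 null and below it on every nup84 null array, and it rose by 9.51-fold (difference 3.25 ± 0.39; adjusted p = 0.00924). ACH1, whose mitochondrial product moves CoA between acetate and other acids, had 4.16, 3.11, 3.99 and 2.46 in the strain labelled nup84gcr1 null, against 0.27, 0.94, 0.37 and 0.55 in the nup84 null. The groups were separate and ACH1 rose (difference 2.89 ± 0.45; adjusted p = 0.0310). ALD4, the main mitochondrial aldehyde dehydrogenase gene, rose by 2.23 ± 0.35 (adjusted p = 0.0310). It stood above wild type in both strains, at 4.23 in the strain labelled nup84gcr1 null and 2.01 in the nup84 null. JEN1, the lactate and pyruvate permease gene, rose by 1.88 ± 0.30 (adjusted p = 0.0333), and YAT2, a carnitine acetyltransferase gene, by 1.94 ± 0.30 (adjusted p = 0.0310).

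Without scaling of the arrays, the members of that list that define gluconeogenesis and the start of the glyoxylate cycle differed little. PCK1, the phosphoenolpyruvate carboxykinase gene, averaged 1.62 in the strain labelled nup84gcr1 null and 1.87 in the nup84 null, with a 95% interval of the difference of -1.03 to 0.54. FBP1, the fructose-1,6-bisphosphatase gene, averaged 1.21 and 1.10 in that order of strains (interval -0.63 to 0.86). ICL1, the isocitrate lyase gene, averaged 1.40 in the strain labelled nup84gcr1 null and 1.17 in the nup84 null (interval -0.49 to 0.96). After scaling the arrays to a common spread, the differences of PCK1, FBP1 and ICL1 were -0.97, -0.35 and -0.23, and none passed the test. MLS1, the malate synthase gene, and ACS1, the acetyl-CoA synthetase gene, were higher on every array labelled nup84gcr1 null but did not pass, at 1.73 ± 0.35 (adjusted p = 0.0701) and 2.16 ± 0.44 (adjusted p = 0.0751). PYC1, a pyruvate carboxylase gene, likewise differed by 1.75 ± 0.45 (adjusted p = 0.116). CAT8 and ADR1, activators of these genes, differed by 0.29 (-0.37 to 0.96) and 0.13 (-0.57 to 0.82), and SIP4, a related activator, by 1.22 ± 0.29 (adjusted p = 0.1002).

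Several other genes of mitochondrial, peroxisomal and small-carbon metabolism rose. SUE1, needed to degrade unstable cytochrome c, had 4.08 to 4.82 on arrays labelled nup84gcr1 null and 1.48 to 1.87 on nup84 null arrays and rose by 2.79 ± 0.33 (adjusted p = 0.00884). DLD3, a cytosolic lactate dehydrogenase gene, and GLO4, the mitochondrial glyoxalase II gene, averaged below wild type in the nup84 null, at -0.43 and -0.58, and rose by 2.78 ± 0.41 (adjusted p = 0.0292) and 2.47 ± 0.33 (adjusted p = 0.0176). DAK2, a dihydroxyacetone kinase gene, read 3.79, 3.05, 3.54 and 4.32 in the strain labelled nup84gcr1 null, against -0.49, -0.26, 1.34 and 1.43 in the nup84 null, without overlap. It rose by 8.98-fold (difference 3.17 ± 0.31; adjusted p = 0.00504). POX1, the acyl-CoA oxidase gene of peroxisomal fatty acid oxidation, rose by 1.98 ± 0.29 (adjusted p = 0.0246). It was the 1 of 16 genes of that list to pass (6.25%, against 0.639% of all genes called higher). Of the 16, 6 were higher without overlap (37.5%, against 7.88% of all genes). STL1, the glycerol and proton symporter gene, rose by 1.83 ± 0.28 (adjusted p = 0.0310). Its arrays overlapped, with 0.53, 0.52, 2.67 and 3.09 in the strain labelled nup84gcr1 null and -1.03, -0.84, 0.95 and 0.38 in the nup84 null, and both strains read higher on arrays 3 and 4 than on arrays 1 and 2.

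Respiratory genes mostly read above the nup84 null, and none passed the test. Of 44 respiratory chain and ATP synthase genes, limma called 0, and 43 had a difference above 0. At an unadjusted p under 0.05, 14 of the 44 were higher, against 505 of all 5636 genes. Of the 44, 16 were higher on every array labelled nup84gcr1 null (36.4%, against 7.88% of all genes). Their median difference was 0.72, and it was 1.10 on arrays 1 and 3 and 0.40 on arrays 2 and 4. COX5A, a cytochrome c oxidase subunit gene, differed most, at 1.47 ± 0.46 (adjusted p = 0.177). All 16 genes of the TCA cycle had a difference above 0, and limma called 0 of them. Only 3 of them were higher at an unadjusted p under 0.05, against 505 of all 5636 genes. Of the 16, 1 was higher without overlap (6.25%, against 7.88% of all genes). It was the citrate synthase gene CIT1 (1.44 ± 0.41; adjusted p = 0.148). The TCA median was 0.57, with 1.11 on arrays 1 and 3 and 0.068 on arrays 2 and 4. With the 4 arrays as replicates, 10 of the 44 respiratory and 2 of the 16 TCA genes were called higher. That setting called 522 of all 5636 genes in either direction, 59.2% of them higher. It counts technical dye swaps as separate samples, although each strain has 2 samples. After scaling the arrays to a common spread, the respiratory and TCA medians were 0.35 and 0.16. The 65 mitochondrial ribosomal protein genes had a median of -0.063. PET122 (YER153C), which encodes a translational activator of a mitochondrial mRNA, read -3.06, -3.12, -4.55 and -5.99 on arrays labelled nup84gcr1 null, against -0.063, -0.29, -1.14 and -1.47 on nup84 null arrays. The groups did not overlap and PET122 fell by 10.9-fold (difference -3.44 ± 0.34; adjusted p = 0.00504). It was the only one of 18 mitochondrial translational activator genes to pass (5.56%, against 0.106% of all genes called lower). The median of the 18 was -0.20.

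A few phosphate, vitamin and amino acid genes passed the test, against 0.639% of all genes called higher. PHO5, the repressible secreted acid phosphatase gene, had 5.51, 3.61, 5.31 and 3.34 in the strain labelled nup84gcr1 null, against 0.74, 0.47, 0.83 and 0.54 in the nup84 null. The groups were far apart and PHO5 rose by 13.9-fold (difference 3.79 ± 0.57; adjusted p = 0.0310), with 4.62 on arrays 1 and 3 and 2.97 on arrays 2 and 4. It was the 1 of 19 phosphate regulon genes to pass (5.26%). Of the 19, 6 were higher without overlap (31.6%, against 7.88% of all genes), and the median was 0.60. PHO84 and PHO89, the high-affinity phosphate transporter genes, were higher on every array labelled nup84gcr1 null and did not pass, at 1.55 ± 0.38 (adjusted p = 0.106) and 2.10 ± 0.46 (adjusted p = 0.0878). PHM6, another phosphate-regulated gene, differed by 2.18 ± 0.40 (adjusted p = 0.0533).

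SNO1, which with its partner SNZ1 makes vitamin B6, read 3.91 to 4.61 in the strain labelled nup84gcr1 null and 0.11 to 1.89 in the nup84 null and rose by 3.08 ± 0.38 (adjusted p = 0.00955). SNZ1 itself averaged 5.24 in the strain labelled nup84gcr1 null and 2.78 in the nup84 null and did not pass (2.45 ± 0.50; adjusted p = 0.0751). THI4, the gene for making the thiazole ring of thiamine, rose by 2.62 ± 0.44 (adjusted p = 0.0422). SNO1 and THI4 were 2 of 16 vitamin B6 and thiamine genes (12.5%). Of the 16, 5 were higher without overlap (31.25%, against 7.88% of all genes), and the median was 0.65.

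Of 31 genes of ammonium, glutamate and amino acid uptake, 2 rose (6.45%), 9 were higher without overlap and 1 lower. The shares without overlap were 29.0% and 3.23%, against 7.88% and 7.15% of all genes. DIP5, the permease gene for glutamate and aspartate, read 2.21, 2.18, 1.92 and 1.92 in the strain labelled nup84gcr1 null, against -1.18, -0.71, -0.79 and -0.56 in the nup84 null. It was above wild type on all arrays of the first strain and below it on all of the second, and rose by 7.28-fold (difference 2.86 ± 0.35; adjusted p = 0.00955). AGP2, a plasma membrane transporter gene linked to carnitine uptake, rose by 2.44 ± 0.41 (adjusted p = 0.0422). ARO10, the decarboxylase gene of the Ehrlich pathway that degrades aromatic amino acids, rose by 2.70 ± 0.31 (adjusted p = 0.00876), with 2.70 and 2.71 in the 2 pairs of arrays. It was the 1 of 26 branched-chain and aromatic amino acid genes to pass (3.85%, against 0.639% of all genes called higher). STR3, the cystathionine beta-lyase gene, rose by 3.09 ± 0.38 (adjusted p = 0.0102). It was 1 of 31 genes of sulfate assimilation and methionine synthesis (3.23%, against 0.639% of all genes called higher). LYS9, the saccharopine dehydrogenase gene of lysine synthesis, had -2.41, -2.95, -3.41 and -4.54 in the strain labelled nup84gcr1 null, against -0.36, -0.37, -1.001 and -1.35 in the nup84 null. The groups did not overlap and LYS9 fell by 5.89-fold (difference -2.56 ± 0.36; adjusted p = 0.0225). It was the 1 of 9 lysine synthesis genes to pass (11.1%, against 0.106% of all genes called lower), with a list median of -0.54.

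The called genes that remain serve other functions. CWP1, a cell wall mannoprotein gene, read -1.68, -1.26, -1.95 and -2.001 on arrays labelled nup84gcr1 null, against 0.63, 1.29, 0.36 and 0.36 on nup84 null arrays. It stood below wild type on every array of the first strain and above it on every array of the second, and fell by 5.23-fold (difference -2.39 ± 0.33; adjusted p = 0.0194). SPG4 and MOH1, genes linked to stationary phase, rose by 3.13 ± 0.36 (adjusted p = 0.00876) and 2.05 ± 0.34 (adjusted p = 0.0422). PDR12, the exporter gene for weak organic acids, rose by 1.82 ± 0.30 (adjusted p = 0.0389), with 1.89 to 2.50 on arrays labelled nup84gcr1 null and 0.34 to 0.53 on nup84 null arrays. FDC1, a phenylacrylic acid decarboxylase gene, rose by 1.93 ± 0.30 (adjusted p = 0.0310). URH1, the uridine nucleosidase gene, INM1, an inositol monophosphatase gene, and HPA3, an acetyltransferase gene, rose by 2.48, 2.001 and 2.30. CTF13, a kinetochore subunit gene, and NDJ1, a gene of meiotic telomeres, rose by 2.06 and 1.65. YTP1, ECM15, FMP23 and YBR137W, for which no role is given here, rose by 1.94, 1.84, 1.80 and 2.04. The adjusted p of these 9 genes lay between 0.0310 and 0.0486.

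Ribosomal protein genes mostly read below the nup84 null, and none passed the test on 2 samples per strain. Of 80 large-subunit genes, 78 had a difference below 0 and 43 were lower on every array labelled nup84gcr1 null. Of 55 small-subunit genes, all 55 were below 0 and 27 did not overlap. The shares lower without overlap were 53.75% and 49.1%, against 7.15% of all genes. The median ratios were -2.09 and -2.11 for large and small subunits in the strain labelled nup84gcr1 null, against -1.09 and -1.13 in the nup84 null. The median differences were -1.001 and -1.08, and -0.43 and -0.47 after scaling the arrays to a common spread. RPL9A, a large-subunit protein gene, came nearest to the threshold, with ratios of -2.84, -2.74, -3.76 and -4.23 in the strain labelled nup84gcr1 null and -0.84, -1.41, -1.64 and -2.24 in the nup84 null (-1.86 ± 0.33; adjusted p = 0.0509). RPS2, of the small subunit, differed by -1.66 ± 0.32 (adjusted p = 0.0598) and RPS26B by -1.49 ± 0.32 (adjusted p = 0.0825). Limma called 0 of both lists on 2 samples per strain, with 65 and 42 lower at an unadjusted p under 0.05. With the 4 arrays as replicates it called 33 large-subunit and 20 small-subunit genes lower, and 68 and 47 with the dye orientation as a term. With array 1 taken as the swap of array 4 and array 2 of array 3 it called 77 and 53. Those settings called 522, 1222 and 3582 of all 5636 genes in either direction. Of these calls, 59.2%, 52.9% and 47.1% were higher. The first 2 settings count technical dye swaps as separate samples. If arrays 1 and 3 are swaps, each pair mean of the third mixes both samples. Whether probes tell the near-identical copies of ribosomal protein genes apart was not tested, so these members may repeat a shared signal.

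Ribosome biogenesis genes differed between the pairs of arrays. Of 130 genes, 125 had a difference below 0 and 18 were lower without overlap (13.85%, against 7.15% of all genes). Limma called 0 of the 130 (41 lower at an unadjusted p under 0.05, against 387 of all 5636 genes). With the 4 arrays as replicates it called 19 of them lower, against 213 of all genes. The median of the 130 was -1.47 on arrays 1 and 3 and -0.13 on arrays 2 and 4. RRP12, a gene for ribosome export, differed by -2.72 and -0.56 in those pairs, and NOP56, of the box C/D snoRNP, by -1.75 and -0.30. Glycolytic genes had the opposite imbalance, with medians of -0.59 on arrays 1 and 3 and -2.02 on arrays 2 and 4. The large-subunit ribosomal protein genes had nearly equal medians of -0.97 and -1.04. Markers of mating type moved with the pairs as well. The alpha-cell receptor gene STE3 read 0.92, -1.11, 2.59 and -1.89 on arrays labelled nup84gcr1 null, against -0.30, -0.61, 1.12 and -0.92 on nup84 null arrays, high on arrays 1 and 3 and low on arrays 2 and 4 of the strain labelled nup84gcr1 null. The a-cell receptor gene STE2 read -1.40, -0.23, -2.18 and 1.72 in that strain and -0.20, 0.60, -0.42 and 0.62 in the nup84 null, with the opposite order of pairs. Over 7 a-cell genes the median ratio in the strain labelled nup84gcr1 null was -1.73 on arrays 1 and 3 and 0.74 on arrays 2 and 4, against -0.17 and 0.86 in the nup84 null. Over 4 alpha-cell genes it was 0.9994 and -1.14, against 0.19 and 0.0085. Limma called 0 of these 11 genes, their part in the results was not tested, and in bulk RNA fewer cells of a type cannot be told from less RNA per cell. The difference of each of the 42 called genes had the same sign in both pairs. The test used the means of these pairs, so genes whose pairs disagreed were unlikely to be called.

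**Figure D3:**
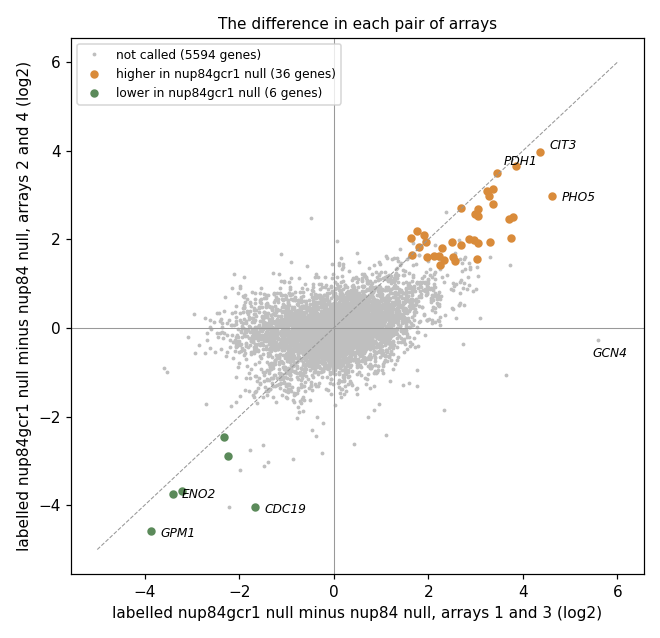
Difference between the strain labelled nup84gcr1 null and the nup84 null on arrays 2 and 4 (y axis, log2) against that on arrays 1 and 3 (x axis, log2), for 5636 genes, with genes called higher in orange, called lower in green, the others in grey and a dashed line where both pairs are equal. All 42 called genes have the same sign in both pairs, whose means entered the test. GCN4 reads 5.59 on arrays 1 and 3 and -0.27 on arrays 2 and 4.

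Stress and storage genes were high in both strains, and the direction of the gap between strains depended on scaling. Of 53 general stress response genes 2 rose, SPG4 and MOH1 (3.77%, against 0.639% of all genes). Of the 53, 13 were higher and 2 lower without overlap (24.5% and 3.77%, against 7.88% and 7.15% of all genes). Their median ratio was 1.99 in the strain labelled nup84gcr1 null and 1.54 in the nup84 null. HSP12, a small heat shock protein gene, read 6.41, 6.10, 6.83 and 6.84 in the strain labelled nup84gcr1 null, against 5.50, 5.604, 5.74 and 5.96 in the nup84 null. The arrays did not overlap, but the difference was 0.84 ± 0.44 and did not pass (adjusted p = 0.389). HSP26, another such gene, differed by 1.45 ± 0.46 (adjusted p = 0.177). After scaling the arrays to a common spread, the differences of HSP12 and HSP26 turned to -1.68 and -0.45, the median of the stress list to -0.23 and that of the trehalose and glycogen list to -0.59, against 0.41 and 0.17 without it. Of 21 trehalose and glycogen genes limma called 0 (lowest adjusted p = 0.0877, for the trehalase gene NTH2 at 1.54 ± 0.33). Of the 21, 1 was higher and 1 lower without overlap (4.76% each, against 7.88% and 7.15% of all genes). GPH1, the glycogen phosphorylase gene, averaged 3.59 in the strain labelled nup84gcr1 null and 3.98 in the nup84 null, with a 95% interval of the difference of -1.11 to 0.34. After scaling, the difference of GPH1 was -2.03 (limma adjusted p = 0.0693).

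There were 253 genes called against wild type in both strains whose 95% interval of the difference lay within 1 log2 unit of 0. The 6 of them with the largest ratio in the nup84 null include the transcription factor genes USV1, at 2.25 in the strain labelled nup84gcr1 null and 2.13 in the nup84 null, and ADR1, at 2.37 and 2.24. AGX1, the alanine glyoxylate aminotransferase gene, averaged 2.41 in the strain labelled nup84gcr1 null and 2.40 in the nup84 null (interval -0.87 to 0.87). SNZ2, a paralogue of SNZ1, averaged 2.10 and 2.03, and YMR196W averaged 3.05 and 2.94, in the same order of strains. SUN4, a cell wall gene of septation, was the low one, at -2.14 in the strain labelled nup84gcr1 null and -2.02 in the nup84 null (interval -0.98 to 0.74). After scaling the arrays to a common spread the differences of these 6 genes were wider, at -1.09 for YMR196W, -0.97 for AGX1, -0.85 for USV1, -0.80 for ADR1, -0.72 for SNZ2 and 0.74 for SUN4, and none passed the test.

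Of 25 DNA damage response genes, 15 differences were below 0 and 10 above, with a median of -0.28. The median ratio was 0.37 in the strain labelled nup84gcr1 null and 0.81 in the nup84 null. Limma called 0 (7 lower at an unadjusted p under 0.05, against 387 of all 5636 genes). Without overlap 2 were higher and 6 lower (8% and 24%, against 7.88% and 7.15% of all genes). RNR4, a ribonucleotide reductase subunit gene, read 0.61, -0.098, 0.19 and -1.26 in the strain labelled nup84gcr1 null, against 2.08, 2.36, 1.71 and 1.56 in the nup84 null. The arrays did not overlap and the difference of -2.06 ± 0.38 narrowly missed the threshold (adjusted p = 0.0533). RNR2, another subunit gene, differed by -1.18 ± 0.45 (adjusted p = 0.254).

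**Figure D4:**
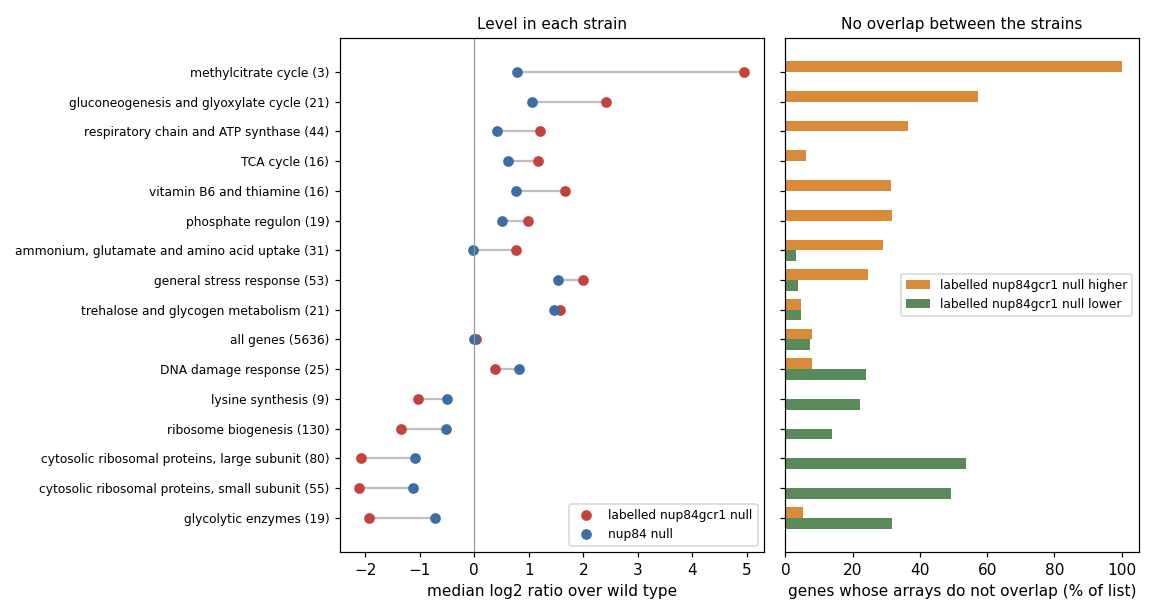
Left, median log2 ratio over wild type of each gene list (number of genes in brackets) in the strain labelled nup84gcr1 null (red) and the nup84 null (blue). Right, percent of the genes of each list whose 4 arrays labelled nup84gcr1 null all lie above (orange) or below (green) the 4 nup84 null arrays, where all genes have 7.88% and 7.15%.

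Some of the widest differences could not be told from the spread between arrays. GCN4, which encodes an activator of amino acid biosynthesis, had ratios of 7.23, 6.26, 6.97 and 8.03 in the strain labelled nup84gcr1 null, against 1.05, 7.52, 1.96 and 7.31 in the nup84 null. The nup84 null was high on arrays 2 and 4 and low on arrays 1 and 3, and the difference of 2.66 ± 1.45 did not pass (adjusted p = 0.409). The high-affinity glucose transporter genes HXT6 and HXT7 were lower in the strain labelled nup84gcr1 null on average, at -2.25 ± 1.04 (adjusted p = 0.339) and -2.26 ± 1.05 (adjusted p = 0.339). HXT7 read 1.97, 0.33, 2.09 and 1.28 on arrays labelled nup84gcr1 null and 5.64, 1.70, 5.49 and 1.88 on nup84 null arrays, so that arrays 1 and 3 of the nup84 null carried the gap. Whether the probes tell HXT6 from HXT7 was not tested. Of 23 hexose transporter and glucose sensor genes the 1 called was STL1, which carries glycerol (4.35%, against 0.639% of all genes called higher). Among GCR1 and 11 partner or related factor genes limma called 0. GCR2 differed by -0.30 (-1.21 to 0.61) and RAP1 by -0.21 (-0.85 to 0.43), and TYE7, an activator of glycolytic genes, was higher without overlap (1.80 ± 0.36; adjusted p = 0.0677). Of genes often used as deletion markers, URA3 and LEU2 were higher on every array labelled nup84gcr1 null, at 1.59 ± 0.30 (adjusted p = 0.0568) and 1.99 ± 0.47 (adjusted p = 0.1002). Which markers these strains carry is not stated, and the part of these genes in the results was not tested.

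The strain labelled gcr1 null allowed the question whether loss of GCR1 by label changed transcripts to a different extent with NUP84 missing than with NUP84 present. The difference of differences was the strain labelled nup84gcr1 null minus the nup84 null minus the strain labelled gcr1 null. Limma called 0 of 5636 genes (0%), with 909 at an unadjusted p under 0.05, 494 above 0 and 415 below. With the 4 arrays as replicates it called 655. The lowest adjusted p was 0.0538, reached by GPH1 at -3.26 ± 0.39 and HSP12 at -4.53 ± 0.53. HSP12 averaged 6.55 in the strain labelled nup84gcr1 null, 5.70 in the nup84 null and 5.37 in the strain labelled gcr1 null. For HXK1 the 3 means were 3.84, 4.32 and 4.31 in that order, with a difference of differences of -4.80 ± 0.64 (adjusted p = 0.0724). Of the 42 genes above, 0 were called in this contrast, and the 36 that rose had values between -2.78 and 2.02 and the 6 that fell between -2.01 and 1.96. GPM1 read 0.92 ± 0.47 (adjusted p = 0.380) and ENO2 1.96 ± 0.40 (adjusted p = 0.107). PHO5 averaged 4.44 in the strain labelled nup84gcr1 null, 0.65 in the nup84 null and 1.78 in the strain labelled gcr1 null, and its value of 2.02 ± 0.70 did not pass (adjusted p = 0.225). ARO10 averaged 3.24, 0.54 and 0.87 in the same order, with 1.83 ± 0.38 (adjusted p = 0.104). An adjusted p above the threshold does not show that the 2 effects were alike.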

How the data were processed

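Transcript levels were measured on 2-colour Agilent arrays, labelled with an Agilent linear amplification kit per the labels. The values the authors deposited, 1 per probe and array for 10807 probes, were taken to be log2 ratios, Cy5 over Cy3, although the table states neither base nor direction. Base 2 was inferred from the spread of the values and the direction taken from the dyes in the labels, and NUP84 is low under it. The sources used here do not give how the authors scaled or corrected the values, and dim or saturated spots could not be told apart. The platform annotation named 1 gene for 9271 probes and none for 1536, and all 9271 identifiers matched the R64 gene table with 0 symbols changed. Signs of arrays 3 and 4 were turned, probes averaged to 5636 genes and each array centred on its median, which had been -0.128 to 0.076 on the 8 arrays. Where a gene had more than 1 probe, its probes differed by a median of 0.0876 in the strain difference.

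Limma 3.58.1 in R 4.3.3 (lmFit, eBayes) was fitted to pair means with 3 strains in 1 fit, 3 residual degrees of freedom and Benjamini-Hochberg adjustment over 5636 genes. Since the swaps are not labelled, array 1 was paired with array 3 (and 2 with 4) and then with array 4 (and 2 with 3), both were fitted and the larger p and SE kept. In the first pairing, the 2 pair means of a strain differed with an SD over genes of 0.807 (labelled nup84gcr1 null) and 0.421 (nup84 null), and in the second of 0.206 and 0.177. The SE pools the strains, and p-values measure only the spread between samples, which may be technical. The correlation of arrays across genes was 0.469 to 0.826 within the strain labelled nup84gcr1 null and 0.575 to 0.852 within the nup84 null. The steps were tested on simulated data.

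Named genes were both deleted genes, the 12 highest and 12 lowest called differences without overlap, all glycolytic enzyme genes, up to 4 called members of each of 51 gene lists (or the member that differed most), and 6 genes alike in both strains. Only 6 genes were called lower, so the 12 lowest took in some genes called higher, such as NDJ1 and JEN1. The other called genes and 28 more were chosen after their values were seen. Members and lists were chosen with earlier results of these data known. Alternatives were the pairing, arrays as replicates, the dye, a replicate block, centring, scale, a 2-fold limit, probes, the strains fitted and pairs of arrays left out. The planned count of promoter motifs was not made, as promoter sequences were not used here. Plots were made in Python 3.11.15 (matplotlib 3.10.9).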

Additional observations from a re-analysis of the deposited data

Results flagged for a closer look

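Among 256 groups of 4 arrays of the named genes, 6 had 1 array far from the other 3, where chance flags about 1 group in 20. In the strain labelled nup84gcr1 null, ALD4 reached 4.71 on 1 array (next 4.12), the activator gene ADR1 2.65 (next 2.30) and URA3 2.28 (next 1.95). In the nup84 null, AGP2 reached 0.87 on 1 array (next 0.41), while HXK1 was lowest at 3.86 on 1 array (next 4.43) and HSP26 at 3.73 (next 3.97).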

How the results depend on the processing

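None of the 42 called genes changed sign in any setting, while 25 of the other named genes did in at least 1. The 42 were called for large differences, which made a change of sign unlikely. The pairings, arrays as replicates, the dye term, the replicate block, the 2-fold limit and the 2-strain fit leave the difference itself unchanged. The number of genes called moved widely from 42. It was 42 with array 1 paired with 3, 3582 with array 1 paired with 4 (the second pairing), 522 with the 4 arrays as replicates and 1222 with the dye orientation as a term. It was 30 without centring, 0 after scaling to a common spread, 7 with a limit of 2-fold, 33 of genes with 2 or more probes, and 23 with only the 2 strains in the fit. Of these calls, 85.7% were higher in the strain labelled nup84gcr1 null in the main setting, 83.3% without centring, 47.1% under the second pairing, 59.2% with arrays as replicates and 52.9% with the dye term. Array 1 correlated more closely with array 3 (0.826 labelled nup84gcr1 null, 0.741 nup84 null) than with array 4 (0.469 and 0.575). If arrays 1 and 3 are swaps, each pair mean of the second pairing mixes both samples. Its high counts would then not rest on the spread between samples. Leaving out 1 pair of arrays of any strain gave 0 to 3450 genes, and the high counts came from leaving out arrays 1 and 4 or 2 and 3, which tests the second pairing alone. The difference of differences, 0 genes in the main setting, gave 3627 under the second pairing, 655 with arrays as replicates, 1335 with the dye term, 623 after scaling, 2 with 2 or more probes and 0 to 3513 with 1 pair left out. With the replicate block, 71 genes were called (70.4% higher) and 0 in the difference of differences, and 41 of the 42 were shared. Under the block, 4 large-subunit and 1 small-subunit ribosomal protein genes, 1 DNA damage gene and 2 phosphate genes passed, against 0, 0, 0 and 1 without it. The replicate numbers were not taken as pairing the strain labelled nup84gcr1 null with the nup84 null. Deviations of same-numbered arrays of the 2 strains correlated at 0.371 to 0.652, but arrays of other numbers in the same dye orientation did so at 0.331 to 0.506, and the difference between arrays 1 and 3 and arrays 2 and 4 correlated at 0.099. With the strain labelled gcr1 null, which shares the estimate of the spread and enters the difference of differences, same-numbered arrays labelled nup84gcr1 null correlated at 0.674 to 0.773, other numbers of the same dye orientation at 0.148 to 0.285, and the pair difference at 0.552, a hint from the data and not from the labels that these numbers are shared. The cause of these shifts was not tested. The number of arrays limits precision, and signal over background was not analysed here.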

Other observations

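Other lists held genes that stood apart on all arrays without passing the test. Of 24 iron uptake genes, 6 were higher and 1 lower without overlap (25% and 4.17%, against 7.88% and 7.15% of all genes). Their median difference was 0.54, and FTH1, a vacuolar iron transporter gene, differed by 1.45 ± 0.39 (adjusted p = 0.127). Of 36 autophagy genes, 7 were higher without overlap (19.4%, against 7.88% of all genes). Among them was ATG8, whose product coats autophagosome membranes. It read 3.84, 2.85, 3.34 and 2.35 in the strain labelled nup84gcr1 null and 1.47, 1.09, 1.26 and 0.9992 in the nup84 null (1.89 ± 0.39; adjusted p = 0.0713). The median of the autophagy list was 0.23, and -0.12 after scaling the arrays to a common spread. Of 36 seripauperin and COS family genes, 24 had a difference below 0, with a median of -0.25 (-0.68 after scaling), while 5 were higher without overlap (13.9%, against 7.88% of all genes), with COS3 at 1.71 ± 0.38 (adjusted p = 0.0879), though probes may not tell these repeats apart. TKL2, the minor transketolase gene of the pentose phosphate pathway, averaged 4.59 in the strain labelled nup84gcr1 null and 2.48 in the nup84 null (adjusted p = 0.112).

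Of 32 nuclear pore genes, 27 had a difference below 0, with a median of -0.35. Of the 32, 1 was higher and 2 lower without overlap (3.1% and 6.25%, against 7.88% and 7.15% of all genes). POM33, a pore membrane protein gene, was the exception by size, with 3.03, 1.95, 2.47 and 0.98 in the strain labelled nup84gcr1 null and 0.15, 0.40, -0.087 and -0.045 in the nup84 null (2.004 ± 0.45; adjusted p = 0.0929). CHO2, the gene for the first methylation step from phosphatidylethanolamine to phosphatidylcholine, read -0.55, -0.58, -1.27 and -1.03 in the strain labelled nup84gcr1 null and 0.91, 0.81, 0.60 and 0.49 in the nup84 null, with opposite signs in the strains, and just missed the threshold (-1.56 ± 0.29; adjusted p = 0.0533). IMD2, an IMP dehydrogenase gene, averaged 0.080 in the strain labelled nup84gcr1 null, -1.54 in the nup84 null and 2.30 in the strain labelled gcr1 null. Limma called 0 of 33 proteasome genes, of which 28 had a difference below 0, and 0 of 11 histone genes, whose median was 0.13.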
